A study of Rattus norvegicus with 40 samples.

Results

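The muscle miRNAs are the mature products, of either arm, of miR-1, miR-1b, miR-133a, miR-133b, miR-133c, miR-206, miR-208a, miR-208b and miR-499, taken by name from the read counts of rat plasma (as rno-miR-1b, rno-miR-133a-5p, rno-miR-206-3p, rno-miR-499-5p, rno-miR-499-3p and so on, written without rno from here). The rule found 16 of the 752 miRNAs counted, and it used no measured value. Of these 16, 10 had at least 1 read in the 40 libraries and 6 had none. Small RNA was sequenced from plasma of 20 adult male Sprague-Dawley rats on day 2 (D2) and again on day 9 (D9) after lateral fluid-percussion injury, a model of traumatic brain injury (TBI) in which a fluid pulse strikes the exposed dura, or after a sham operation with the craniotomy but no pulse. There were 4 sham-operated rats, 7 TBI rats that later had unprovoked seizures in video-EEG monitoring (TBI+) and 9 TBI rats without such seizures (TBI−). All blood came from the tail vein of rats under isoflurane, each library was 1 rat on 1 day, and the same rats were sampled on both days. No unoperated rats were among these libraries, so the sham rats also carried the effects of anesthesia and craniotomy.

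MiR-1, miR-133 and miR-206 are known as myomiRs because they are made almost wholly in striated muscle. MiR-1 and miR-133a are transcribed together and act in heart and skeletal muscle, whereas miR-206 and miR-133b are encoded side by side and are typical of skeletal muscle. MiR-208a, miR-208b and miR-499 lie in introns of the myosin heavy chain genes Myh6, Myh7 and Myh7b, and they help to set the type of myosin a muscle cell makes. In plasma, these miRNAs are used as markers of muscle and heart damage.

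The 7 members with more than 10 reads, and 3 close relatives of these without a read, are shown with the seed (bases 2 to 8, the part that pairs with targets) in capitals. The sequences are those of RefSeq for the assembly GRCr8, in which 15 of the 16 members had an entry, and miR-206-5p is given by name only.
miR-133b-3p: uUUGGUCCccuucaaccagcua
miR-133a-3p: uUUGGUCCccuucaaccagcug
miR-133a-5p: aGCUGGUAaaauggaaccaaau
miR-133c: cAGCUGGUugaaggggaccaa
miR-1-3p: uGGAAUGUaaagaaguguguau
miR-1b: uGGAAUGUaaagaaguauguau
miR-206-3p: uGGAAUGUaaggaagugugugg
miR-208a-3p: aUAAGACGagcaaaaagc
miR-208b-3p: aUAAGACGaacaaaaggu
miR-499-5p: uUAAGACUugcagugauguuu

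Counting positions from 1 at the 5′ end, miR-133a-3p and miR-133b-3p share their seed and differ by G22A alone, the last base. MiR-1-3p and miR-1b differ by G17A alone, and miR-206-3p differs from miR-1-3p by A11G, A21G and U22G with the same seed. MiR-208a-3p and miR-208b-3p share a seed and differ by G10A, A16G and C18U, and the seed of miR-499-5p differs from theirs by the base at its last position. No other miRNA with a sequence, among the 685 counted miRNAs that matched RefSeq, had a seed of any member. Since a read without the last base cannot separate miR-133a-3p from miR-133b-3p, the reads of miR-133b-3p could hold some of miR-133a-3p, which was not tested.

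The 6 members without a read were miR-1-3p, miR-1-5p, miR-133a-3p, miR-133c, miR-206-5p and miR-208a-5p. MiR-1-3p and miR-133a-3p, the main arms of their hairpins in muscle, thus had a count of 0 in every library. In RefSeq, miR-133a-3p (chr18:2157886-2157907, minus strand) and miR-133c (chr18:2157886-2157906, plus strand) share 21 bases on opposite strands. MiR-1-3p (chr18:2160339-2160360, minus strand) shares 21 bases with miR-3571, and miR-208a-5p (chr15:32395599-32395620, minus strand) shares 20 bases with miR-3546. Each of these 4 members and both of those partners had 0 reads. MiR-1-5p overlapped no other miRNA and also had 0 reads, and none of the 10 members with reads overlapped another miRNA. Over all matched miRNAs, 84 of the 92 that overlap another, in each case on the opposite strand, had 0 reads (91.3%), compared with 70 of the 593 without an overlap (11.8%). Whether the counting of overlapping positions set these counts to 0 was not tested, and the level of the 6 members in plasma is not read from them here.

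**Figure D1:**
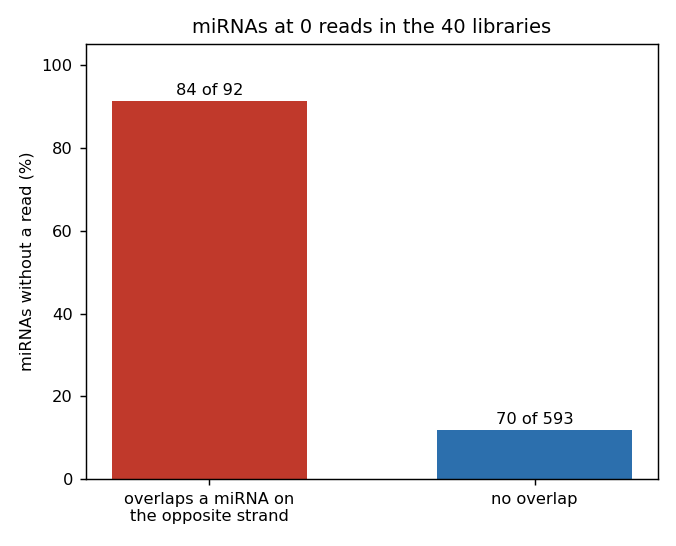
Share of miRNAs (y axis, percent) that had no read in any of the 40 libraries, for miRNAs whose RefSeq position overlaps another miRNA on the opposite strand and for those without an overlap. The share was 91.3% of 92 miRNAs with an overlap, miR-1-3p and miR-133a-3p among them, and 11.8% of 593 without one.

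On D2 a library held 404542 to 2562083 miRNA reads in total. On D9 the totals were 332161 to 2864893 in TBI rats but 140636 to 358202 in sham rats. Values are given in CPM, the reads of a miRNA per 1000000 miRNA reads of its library. At these depths 3 reads, used as the floor, were worth 1.17 to 7.42 CPM on D2, 1.05 to 9.03 CPM in D9 TBI libraries and 8.38 to 21.3 CPM in D9 sham libraries, so members of low level were measured least well in D9 sham plasma. These floors cover counting error only, since PCR copies of a molecule are not independent. CPM is relative to all other miRNAs of a library, and in plasma fewer releasing cells and less release per cell cannot be told apart. Log2 fold changes come from edgeR (quasi-likelihood), with p-values adjusted by Benjamini-Hochberg over all miRNAs that had reads, and a miRNA with an adjusted p below 0.05 is said to have changed.

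Most of the counted reads of muscle miRNAs belonged to miR-133b-3p and miR-133a-5p, arms of different hairpins. The plasma level of the 6 members without a read, miR-1-3p and miR-133a-3p among them, is not known from these counts. MiR-133b-3p held 9667 reads and miR-133a-5p 6946 reads, and together these were 16613 of the 17223 reads of all members (96.5%). Both had reads in all 40 libraries. By mean CPM over the rats, miR-133b-3p was 97th of the 565 miRNAs detected on D2 and 155th of the 541 detected on D9, and miR-133a-5p was 108th and 201st. MiR-208b-3p followed with 308 reads and miR-499-5p with 182 reads, each found in 35 libraries. MiR-208a-3p, the heart member, had 67 reads in 18 libraries, of which 65 reads fell on D2 and 2 on D9. MiR-1b had 26 reads, miR-206-3p 11, miR-133b-5p 6, and miR-208b-5p and miR-499-3p 5 each.

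On D2, none of the 10 members with reads differed between TBI and sham rats by edgeR, while 6.19% of all 565 miRNAs tested did. Likewise none differed in TBI+ against sham rats (background 3.19%) or in TBI− against sham rats (background 6.19%). MiR-133b-3p measured 119.5, 238, 293 and 265 CPM in the 4 sham rats. In TBI+ rats it ranged from 190 to 1366 CPM with a median of 258, and in TBI− rats from 136 to 581 CPM with a median of 309. The groups overlapped, and 1 TBI+ rat stood far above all others, rat 7 at 1366 CPM, with the next TBI+ rat at 481. The means were 229 ± 76.4 CPM in sham (SD, n = 4) and 372 ± 289 CPM in TBI rats (SD, n = 16), a log2 fold change of 0.78 (SE 0.40, edgeR adjusted p = 0.293) with a 95% interval from -0.05 to 1.60.

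MiR-133a-5p, from the miR-133a hairpin and not that of miR-133b, measured 50.5, 229, 217 and 434 CPM in the sham rats on D2. It ranged from 174 to 388 CPM in TBI+ rats (median 358) and from 130 to 475 CPM in TBI− rats (median 198). Sham rat 1 was the lowest of all 20 rats, and the other sham rats fell among the TBI rats. The log2 fold change between TBI and sham was 0.30 (SE 0.35, edgeR adjusted p = 0.650; 95% interval from -0.40 to 1.01).

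The myosin-gene miRNAs were low on D2 and overlapped between the groups. MiR-208b-3p measured 8.41, 3.82, 7.45 and 9.01 CPM in sham rats, between 4.68 and 35.9 CPM in TBI+ rats (median 13.0) and between 0.769 and 23.2 CPM in TBI− rats (median 8.06). Its log2 fold change in TBI was 0.83 (SE 0.59, edgeR adjusted p = 0.450; 95% interval from -0.37 to 2.02). MiR-499-5p had 3, 3, 0 and 3 reads in the sham rats and a median of 5.5 reads in the TBI rats, with 0 to 19 reads in a library. Its log2 fold change was 1.41 (SE 0.83, edgeR adjusted p = 0.375; 95% interval from -0.28 to 3.10), an interval that holds no difference as well as a rise of several fold. MiR-208a-3p had 0, 6, 2 and 7 reads in the sham rats and between 0 and 13 reads in TBI rats.

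The later epilepsy outcome did not separate the muscle miRNAs on either day. No member differed between TBI+ and TBI− rats on D2 or D9 by edgeR, nor did any of all miRNAs (0% on both days, with 38 miRNAs on D2 and 22 on D9 at an unadjusted p below 0.05). On D2 the log2 fold change of TBI+ against TBI− was 0.39 for miR-133b-3p (95% interval from -0.28 to 1.06, edgeR adjusted p = 0.799) and 0.27 for miR-133a-5p (from -0.33 to 0.88, edgeR adjusted p = 0.860). Without TBI+ rat 7 the value for miR-133b-3p turned to -0.20 (edgeR adjusted p = 0.879). On D9 it was -0.31 for miR-133b-3p (from -0.97 to 0.36, edgeR adjusted p = 0.901) and -1.17 for miR-133a-5p (from -2.42 to 0.09, edgeR adjusted p = 0.802). Without TBI− rat 2, at 175 CPM on D9, the value for miR-133a-5p was -0.26 (edgeR adjusted p = 1). DESeq2 likewise called no member in either comparison.

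**Figure D2:**
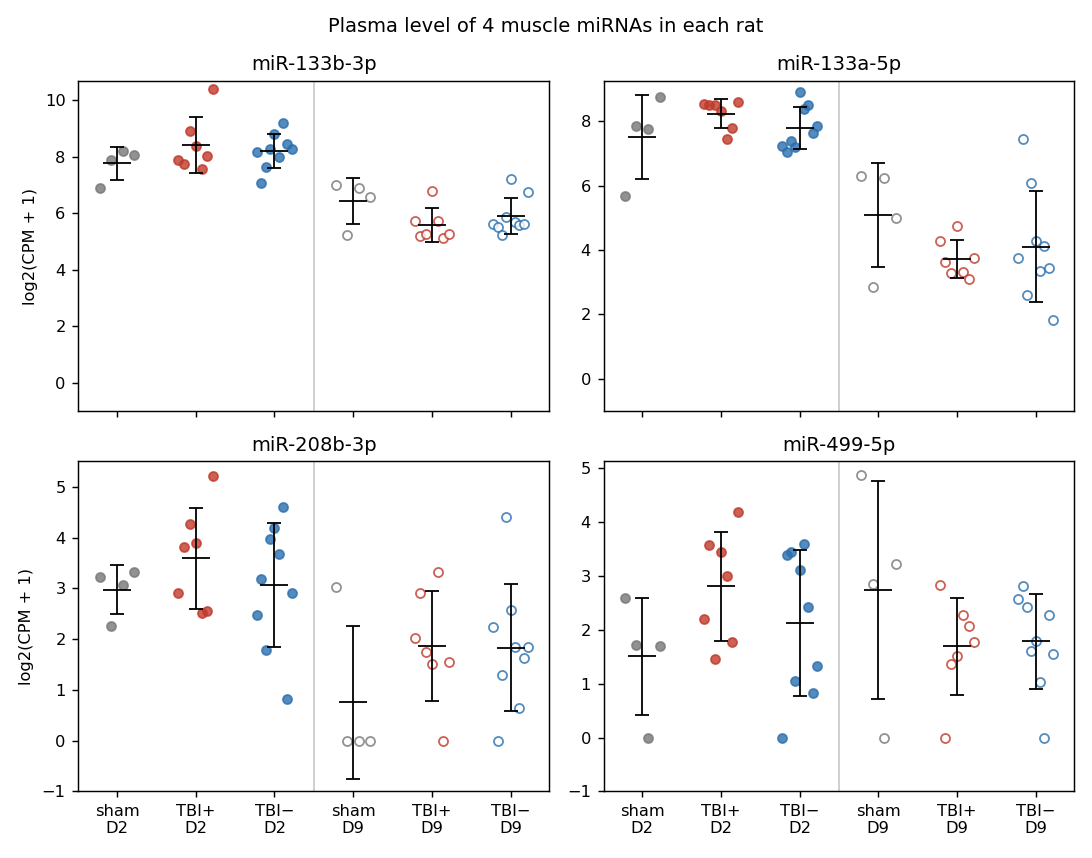
Level of miR-133b-3p, miR-133a-5p, miR-208b-3p and miR-499-5p in each rat as log2(CPM + 1) (y axis) by group and day (x axis), with filled points for D2 and open points for D9. Bars give the mean and SD of the points, and the mean levels of both miR-133 arms on D9 lie below those on D2 in all groups while sham, TBI+ and TBI− points overlap within each day.

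On D9, miR-1b was the only one of the 8 members then with reads that differed between TBI and sham rats by edgeR, while 3.51% of all 541 miRNAs did. MiR-1b, a close relative of miR-1-3p, had 11 reads (67.8 CPM) in sham rat 2 and 0 reads in the other 3 sham rats, and 4 reads in all among the 16 TBI rats. Its log2 fold change of -5.56 (SE 0.94, edgeR adjusted p = 0.000126) rested on that library, and without sham rat 2 the value was 1.43 (edgeR adjusted p = 0.877). Likewise, 2 of the 8 members, miR-1b and miR-206-3p, were lower in TBI− than in sham rats (background 4.81%), and miR-206-3p had 2 reads, both in sham rat 2, and none in the TBI− rats. DESeq2 called no member on D9, with an adjusted p of 0.309 for miR-1b in TBI+ and of 0.349 in TBI− against sham rats, and it gave none for miR-1b in TBI against sham rats or for miR-206-3p. In TBI+ against sham rats miR-1b alone was called (background 1.85%), again through sham rat 2.

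MiR-133b-3p measured 127.99, 37.0, 118.8 and 94.9 CPM in sham rats on D9. It ranged from 33.7 to 110 CPM in TBI+ rats (median 37.9) and from 36.8 to 149 CPM in TBI− rats (median 48.5). The sham mean was 94.7 ± 40.9 CPM (SD, n = 4) and the TBI mean 59.3 ± 33.0 CPM (SD, n = 16), a log2 fold change of -0.60 (SE 0.37, edgeR adjusted p = 0.488; 95% interval from -1.35 to 0.16). MiR-133a-5p measured 78.2, 6.17, 74.2 and 30.7 CPM in sham rats, from 1 to 15 reads in a library. It ranged from 7.50 to 25.7 CPM in TBI+ rats (median 11.4) and from 2.58 to 175 CPM in TBI− rats (median 12.4), a log2 fold change of -0.96 (SE 0.75, edgeR adjusted p = 0.630; 95% interval from -2.50 to 0.58). For both arms sham rat 2 was the lowest sham rat, with TBI rats on either side of it.

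MiR-499-5p had 4, 1, 0 and 3 reads in the D9 sham libraries, which is 28.4, 6.17, 0 and 8.38 CPM, and between 0 and 6.15 CPM in TBI rats. The log2 fold change was -1.70 (SE 0.78, edgeR adjusted p = 0.278; 95% interval from -3.29 to -0.11), and without sham rat 1 it was -0.76 (edgeR adjusted p = 0.862). MiR-208b-3p had 1 read in all in the D9 sham libraries and 58 in the D9 TBI libraries, a ratio of 2.45 per read sequenced with a 95% counting interval from 0.423 to 98.5, so a difference was not detectable at this depth.

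The clearest pattern among the muscle miRNAs was a lower level on D9 than on D2 in TBI rats. Of the 10 members, 5 were lower on D9 by edgeR and none was higher, while 18.4% of all 581 miRNAs were lower and 14.1% higher (32.5% changed). In TBI+ rats 4 members were lower and none higher (background 11.2% lower and 4.82% higher, 16.0% in all), and in TBI− rats 3 were lower and none higher (background 12.9% and 7.23%, 20.1% in all). In sham rats no member was lower (background 3.10%), and miR-1b was higher through sham rat 2 alone (background 2.58% higher, 5.68% in all).

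MiR-133a-5p fell from a mean of 273 ± 108 CPM on D2 to 25.6 ± 42.4 CPM on D9 in TBI rats (SD, n = 16). Its log2 fold change was -3.80 (SE 0.38, edgeR adjusted p = 5.70e-12), a level 13.9 times lower with a 95% interval from 8.26 to 23.5. The fall was seen in TBI+ rats (log2 fold change -4.51, SE 0.58, edgeR adjusted p = 3.12e-08) and in TBI− rats (-3.09, SE 0.48, edgeR adjusted p = 2.07e-06). In TBI+ rats the highest D9 value, 25.7 CPM, lay below the lowest D2 value, 174 CPM. Within rats it was lower on D9 in 15 of the 16 TBI rats, and the median D9 level was 4.19% of the D2 level of the same rat (exact permutation test within rats, two-sided, p = 6.10e-05). The exception was TBI− rat 2, which went from 130 to 175 CPM, and without it the log2 fold change in TBI− rats was -4.18 (edgeR adjusted p = 1.99e-10).

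MiR-133b-3p fell from 372 ± 289 CPM to 59.3 ± 33.0 CPM (SD, n = 16), with a log2 fold change of -2.73 (SE 0.26, edgeR adjusted p = 2.04e-12), a level 6.65 times lower with a 95% interval from 4.63 to 9.54. In TBI+ rats the log2 fold change was -3.14 (SE 0.40, edgeR adjusted p = 2.78e-08), and in TBI− rats -2.33 (SE 0.34, edgeR adjusted p = 6.63e-07). It was lower on D9 in 16 of 16 TBI rats, with D9 at 2.74% to 34.0% of the D2 level of the same rat and a median of 18.5% (exact permutation test within rats, two-sided, p = 3.05e-05, the smallest that 16 rats allow). Without TBI+ rat 7, the highest on D2, the log2 fold change in TBI+ rats was -2.34 (edgeR adjusted p = 1.73e-06).

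MiR-208a-3p had reads in 13 of the 16 TBI rats on D2, 50 in all, but only 1 read in each of 2 TBI− rats on D9 and 0 in the other TBI libraries. The ratio of reads per read sequenced was 24.4 between D2 and D9, with a 95% counting interval from 6.41 to 207, and the edgeR adjusted p was 1.64e-05. The counting intervals given here pool the reads of the rats, so they leave out the spread between rats and are too narrow for it. All 7 TBI+ rats had reads on D2, between 1 and 13, and none on D9, which set to the floor of 3 reads in each D9 library is at least 1.23-fold lower. The same bound was 0.865-fold in all TBI rats and 0.605-fold in TBI− rats, so with D9 set to the floor no fall is shown there. In TBI− rats, with 14 reads on D2 and 2 on D9, the edgeR adjusted p was 0.0247. The call was kept in 4 of 7 alternatives and lost with the rat as a replicate block (log2 fold change -2.51 against -2.63 without the block, adjusted p = 0.152), with all libraries thinned to the same total (-1.90, adjusted p = 0.154) and with the index of hemolysis (the log2 ratio of miR-451-5p to miR-23a-3p) as a covariate (-1.62, adjusted p = 0.458).

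MiR-208b-3p fell from 11.7 ± 9.04 to 3.94 ± 4.97 CPM in TBI rats (SD, n = 16), with a log2 fold change of -1.77 (SE 0.43, edgeR adjusted p = 0.00115), and with thinned libraries it was -1.35 (adjusted p = 0.0921). It was lower on D9 in 13 of 16 TBI rats and higher in 3. In TBI+ rats its edgeR adjusted p was 0.0233, 0.0943 with thinned libraries and 0.204 without rat 7, which had 40 reads on D2. In TBI− rats the log2 fold change was -1.48 (edgeR adjusted p = 0.0602; DESeq2 adjusted p = 0.0413). MiR-133b-5p, with 6 reads on D2 and 0 on D9, was called lower in TBI rats (edgeR adjusted p = 0.0280), all libraries being at or below 3 reads, and it was not called with the rat as a replicate block (adjusted p = 0.443).

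MiR-499-5p did not pass the edgeR test for a change between the days. In TBI rats it measured 6.14 ± 4.93 CPM on D2 and 2.85 ± 1.89 CPM on D9 (SD, n = 16), a log2 fold change of -1.04 (SE 0.46, edgeR adjusted p = 0.0770; 95% interval from -1.95 to -0.12), while DESeq2 gave -1.14 (adjusted p = 0.0481). It was lower on D9 in 10 of the 16 TBI rats and higher in 6, whereas in sham rats its CPM was higher in 3 and at 0 on both days in 1. The sham libraries held 9 reads of it in all on D2 and 8 in the shallower D9 libraries. The log2 fold change in sham rats was 2.03 (SE 1.09, edgeR adjusted p = 0.327), with a 95% interval from -0.16 to 4.22, so it was not called and rested on few reads.

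**Figure D3:**
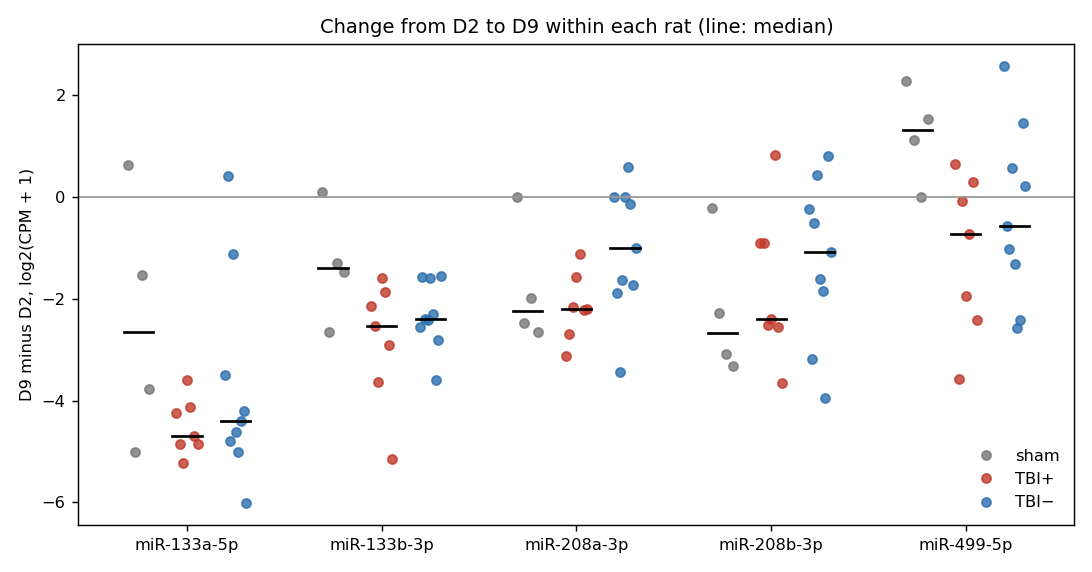
Difference between D9 and D2 in log2(CPM + 1) (y axis) in each rat for 5 muscle miRNAs (x axis), with 1 point a rat, coloured by group, and lines at the medians. The points for miR-133b-3p lie below 0 in all 16 TBI rats and those for miR-133a-5p in 15, while those for miR-499-5p lie on both sides of 0.

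Both miR-133 arms also had smaller log2 fold changes in the same direction in the 4 sham rats, which did not pass the edgeR test. MiR-133a-5p was lower on D9 in 3 of 4 sham rats, with D9 levels at 2.70%, 34.1% and 7.08% of D2 in rats 2, 3 and 4 and at 155% in rat 1. The log2 fold change in sham rats was -2.30 (SE 0.74, edgeR adjusted p = 0.0511; 95% interval from -3.78 to -0.81), and without sham rat 1 it was -3.08 (edgeR adjusted p = 0.0212). With the rat as a replicate block it was -2.21 (adjusted p = 0.00130), but that fit gave miR-133a-5p an SE of 0.50 where the changes of the 4 rats themselves have an SE of 1.24, and the exact permutation test within the 4 rats gave p = 0.25 (two-sided, 0.125 being the smallest possible). MiR-133b-3p was also lower in 3 of 4 sham rats, with a log2 fold change of -1.24 (SE 0.52, edgeR adjusted p = 0.162; 95% interval from -2.28 to -0.20). MiR-208b-3p was lower on D9 in 4 of 4 sham rats, with a mean within-rat change in log2(CPM + 1) of -2.22 in sham and of -1.45 in TBI rats, but it had 27 reads on D2 and 1 on D9 in sham rats, a ratio of 5.97 per read sequenced with a 95% counting interval from 0.983 to 244. MiR-208a-3p was lower in 3 of 4 sham rats, from 15 reads in all on D2 to 0 on D9, where its mean D2 level of 3.20 CPM lay under the floor of the D9 sham libraries.

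Whether the fall differed between TBI and sham rats was tested by the interaction of injury and day. Of the 10 members, edgeR called miR-1b alone (log2 difference -5.55, adjusted p = 0.0383; background 3.27%), which rested on sham rat 2 and was also not called without sham rat 1 or 4 (adjusted p = 0.0780 and 0.0568). For miR-133b-3p the log2 fold change on D9 against D2 was lower in TBI than in sham rats by a difference of -1.50 (SE 0.57, edgeR adjusted p = 0.146; 95% interval from -2.65 to -0.34), and for miR-133a-5p also by -1.50 (SE 0.82, edgeR adjusted p = 0.386; 95% interval from -3.15 to 0.15). For miR-499-5p it was -3.07 (SE 1.19, edgeR adjusted p = 0.146), but the 4 sham rats held only 9 reads of it on D2 and 8 on D9. The answer depended on the test. DESeq2 gave an adjusted p of 0.0400 for both miR-133b-3p and miR-499-5p, and the blocked fit gave -2.01 for miR-133a-5p (adjusted p = 0.0204). An exact permutation test on the changes within rats gave unadjusted p-values of 0.0440 for miR-133b-3p, 0.0411 for miR-499-5p and 0.0974 for miR-133a-5p (two-sided, over 4845 choices of 4 of the 20 rats). Without sham rat 1 the edgeR differences shrank to -0.94 for miR-133b-3p and -0.78 for miR-133a-5p.

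**Figure D4:**
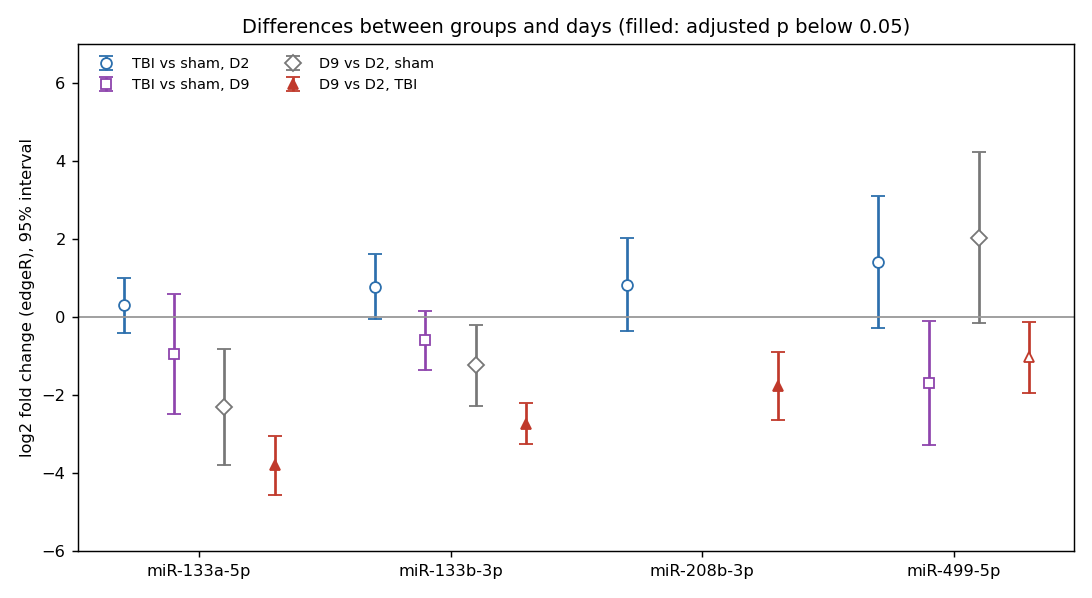
Log2 fold changes from edgeR (y axis) with 95% intervals for 4 muscle miRNAs (x axis), comparing TBI with sham rats on each day and D9 with D2 in sham and in TBI rats. Filled symbols mark an adjusted p below 0.05 and are seen for D9 against D2 in TBI rats for miR-133a-5p, miR-133b-3p and miR-208b-3p, and both comparisons with D9 sham rats are left out for miR-208b-3p, which had 1 read there.

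MiR-133a-5p and miR-133b-3p, arms of different hairpins, did not fall to the same degree. The ratio of miR-133b-3p to miR-133a-5p reads rose in TBI rats from a median of 1.19 (D2) to one of 4.32 (D9). Within the TBI rats, the change of miR-133a-5p in log2(CPM + 1) minus that of miR-133b-3p had a mean of -1.51 (SD 1.62, n = 16), and it was the larger fall in 13 of the 16 rats (exact permutation test, two-sided, p = 0.00305). This comparison was chosen after the values had been seen. With all libraries thinned to the smallest total the mean difference was -1.64 (exact permutation test, p = 0.00922). In sham rats the median ratio was 1.19 on D2 and 2.36 on D9, from 1.60 to 6.00 on D9.

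**Figure D5:**
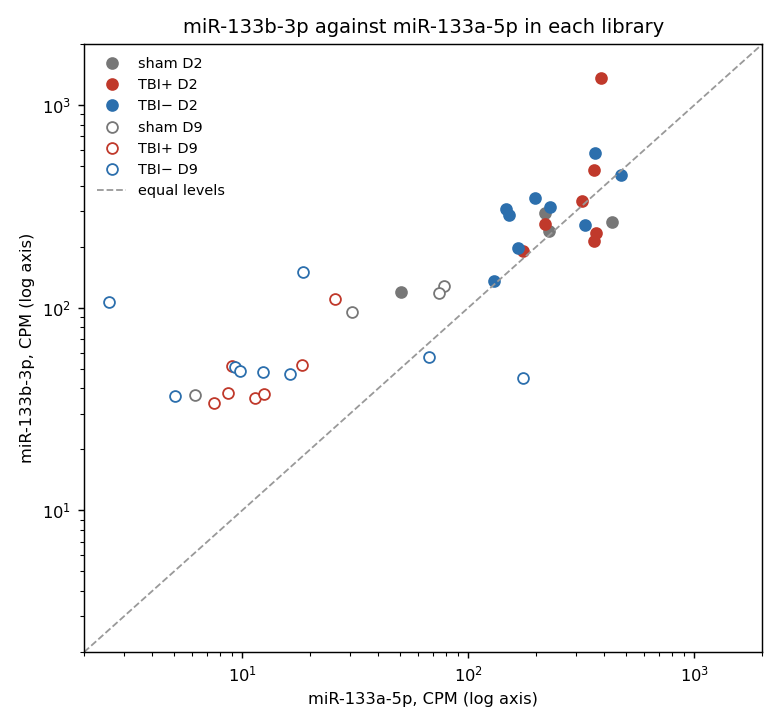
Level of miR-133b-3p (y axis, CPM, log scale) against that of miR-133a-5p (x axis, CPM, log scale), with 1 point a library, filled for D2 and open for D9, and a dashed line where both are equal. The D2 points gather near the line at 130 CPM and above except 1 sham rat, and most D9 points lie above the line at lower levels of both arms, with a median ratio of 4.32 in TBI rats.

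Library numbers and markers of blood cells and other sources were also set beside the fall. The labels carry library numbers whose meaning the study does not state, and D2 and D9 libraries differ in them. In the 8 rats whose D2 number was below the D9 number (4 sham and 4 TBI+ rats), miR-133a-5p and miR-133b-3p were each lower on D9 in 7. In the 12 rats with the opposite order (3 TBI+ and 9 TBI− rats) they were lower in 11 and 12. All sham rats had the lower number on D2 and all TBI− rats the higher, so this direction and the group cannot be told apart in them. The hemolysis index, the log2 ratio of miR-451-5p, abundant in red cells, to miR-23a-3p, was -0.28 ± 0.64 on D2 and 1.28 ± 0.63 on D9 in TBI rats (SD, n = 16), and -0.52 ± 0.66 and 1.13 ± 0.23 in sham rats (SD, n = 4), although miR-23a-3p itself was lower on D9. The study screened the plasma for hemolysis by eye and by the absorbance of hemoglobin, which was not compared with this index here. With the index as a covariate, chosen after the data were seen, edgeR called the falls of miR-133a-5p, miR-133b-3p and miR-208a-3p in TBI rats, whereas miR-208b-3p measured -0.71 (adjusted p = 0.655). The index itself differed between the days, so this fit cannot fully tell its part from that of the day. Among markers of other sources, 4 of 4 red cell and 2 of 2 platelet and leukocyte miRNAs counted were higher on D9 in TBI rats. There, 2 of 2 smooth muscle and 3 of 4 neuronal ones were lower, and 0 of 3 hepatocyte ones changed, miR-122-5p being at 0 reads. The background was 14.1% higher and 18.4% lower. In sham rats none of the markers was called higher, and 1 of 2 smooth muscle and 1 of 4 neuronal ones were lower (background 2.58% higher and 3.10% lower). The median summed CPM of platelet and leukocyte markers went from 31714.4 to 16385.3 in sham rats and from 16506.4 to 23180.5 in TBI rats. In TBI rats the summed CPM of the markers ranged on D2 and D9, in this order, from 10781 to 48279 and from 17910 to 74325 for red cells. It ranged from 6290 to 31715 and from 10732 to 42996 for platelets and leukocytes, and from 15206 to 65586 and from 7766 to 53873 for smooth muscle. Their part in the fall of the muscle miRNAs was not tested.

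Of 16 relations computed among members over the TBI rats, within a day or between the days, none passed adjustment. For miR-133a-5p and miR-133b-3p on D2, Pearson's r was 0.57 (permutation p = 0.0152, adjusted p = 0.0887; Spearman's rho 0.57, permutation p = 0.0237, n = 16), and 0.51 without the 2 rats farthest from the median of miR-133a-5p. Within the outcomes r was 0.52 in TBI+ and 0.71 in TBI− rats. MiR-208b-3p had r = 0.61 with miR-133a-5p (permutation p = 0.0116, adjusted p = 0.0887; rho 0.62, permutation p = 0.0120) and r = 0.59 with miR-133b-3p (permutation p = 0.0166, adjusted p = 0.0887; rho 0.59, permutation p = 0.0174). MiR-499-5p had r = 0.05 with miR-133b-3p on D2 (permutation p = 0.857, adjusted p = 0.983; rho -0.15, permutation p = 0.586), r = 0.39 with miR-133a-5p (permutation p = 0.131, adjusted p = 0.420; rho 0.37, permutation p = 0.160) and r = 0.41 with miR-208b-3p (permutation p = 0.110, adjusted p = 0.420; rho 0.38, permutation p = 0.146). The level of a rat on D2 did not predict its level on D9, with r = -0.26 for miR-133a-5p (permutation p = 0.352; rho 0.04, permutation p = 0.901) and r = 0.07 for miR-133b-3p (permutation p = 0.780; rho 0.17, permutation p = 0.532). For miR-133a-5p that r was 0.52 without the 2 rats farthest from the D2 median.

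Over all 40 libraries, which share the days and differ in depth, the miRNA most like miR-133a-5p among 274 with a mean of at least 10 reads was miR-133b-3p, at a Spearman's rho of 0.86. MiR-320-3p (0.82) and miR-328b-3p (0.80) came next for miR-133a-5p, and miR-99b-5p (0.82) and miR-328b-3p (0.80) for miR-133b-3p. For miR-208b-3p the nearest were miR-133b-3p (0.66), miR-133a-5p (0.61) and miR-320-3p (0.55). MiR-499-5p stood apart from the other members, with miR-497-5p (0.43), miR-193a-3p (0.42) and miR-29b-3p (0.42) nearest.

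Other miRNAs linked to muscle growth and differentiation, which are made in many tissues, were read from a list of 14, of which 13 were among the counted miRNAs and 11 had reads. On D2 none of the 11 differed between TBI and sham rats (background 6.19%; median log2 fold change 0.06, and 0.09 over all miRNAs). On D9 miR-503-5p, linked to the withdrawal of myoblasts from the cell cycle, was called lower in TBI rats (log2 fold change -3.74, SE 0.92, edgeR adjusted p = 0.0161), and the other 10 did not pass (background 3.51%). All of its 20 reads in D9 sham rats (123 CPM) were in sham rat 2, the library that also held the miR-1b reads, and without that rat the value was 4.13 (edgeR adjusted p = 0.631). Between the days, 5 of the 11 were lower on D9 in TBI rats and none higher (background 18.4% lower; median log2 fold change -0.49, and 0.05 over all miRNAs). These were miR-214-3p (-1.24, edgeR adjusted p = 1.42e-06), miR-29b-3p (-0.97, adjusted p = 9.87e-06), miR-23a-3p (-0.74, adjusted p = 0.000444), miR-378b (-0.87, adjusted p = 0.000828) and miR-199a-3p (-0.49, adjusted p = 0.0342, and 0.0902 with the rat as a replicate block). With the hemolysis index as a covariate none of the 5 was called (adjusted p from 0.0645 for miR-214-3p to 1 for miR-199a-3p, whose value turned to 0.055), and miR-23a-3p is itself a term of that index. Each of these log2 fold changes was smaller in size than those of miR-133a-5p, miR-133b-3p and miR-208b-3p, a difference that was not tested. In sham rats 1 of the 11 was called lower on D9, and the other 10 did not pass (background 3.10% lower). The median log2 fold change there was -0.48, and 0 over all miRNAs. The member called was miR-23a-3p (-1.37, edgeR adjusted p = 0.00847, and 0.0653 without sham rat 2). MiR-214-3p measured -1.31 in sham rats (edgeR adjusted p = 0.0579) and miR-378b 0.22 (adjusted p = 0.867). MiR-378a-3p and miR-378a-5p were at 0 reads.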

How the data were processed

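The authors trimmed the reads with Trimmomatic 0.36, merged both flow cells of a sample, aligned them with Bowtie2 to the rat genome Rno6 and counted those on miRBase miRNAs with featureCounts. They deposited raw read counts of 752 miRNAs in 40 libraries, which were used as counts. Rows were chosen by name, and group, rat and day come from the titles. CPM was the count per 1000000 miRNA reads of the library.

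Each day's comparisons used edgeR's quasi-likelihood test (TMM, Benjamini-Hochberg, threshold 0.05) on the 20 libraries of the day and all miRNAs with a read that day. The days were compared over 40 libraries in 6 groups, with TBI as the mean of TBI+ and TBI−. SE is the log2 fold change divided by the square root of F. Single values were tested by exact permutation of log2(CPM + 1). Alternatives were DESeq2, RLE factors, library totals alone, filterByExpr, thinning (seed 1), the hemolysis index, a replicate block (the animal number within a day, the rat between days), rats split by library number, and the fits without each sham rat in turn. The D2 and D9 libraries of a rat are paired by the group and number in their titles, but their deviations from the group means had a median correlation of -0.06, above 0.1 in 4 of 20 rats.

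All members are named, with the 3 miRNAs most like each member that had reads in at least 20 libraries, and listed muscle-linked miRNAs that passed a test. Members and lists were chosen with earlier results of these data known. RefSeq positions and sequences are of GRCr8, another build than the alignment, and the alignment positions themselves were not used here.

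On simulated data with 4-fold changes, 142 of 197 changed miRNAs were recovered on D2, 107 of 189 on D9 and 166 of 197 between the days, with 6 of 148, 3 of 110 and 6 of 172 calls false. The simulation gave all miRNAs the same dispersion (spread beyond counting) and held no rat effect. It compared the days over all rats rather than in the 6 groups, so its rates need not hold for the real tests. There were 0 pairs of identical libraries. The software was edgeR 4.0.16 and DESeq2 1.42.0 under R 4.3.3, and scipy 1.17.1, numpy 2.4.6, pandas 2.3.3 and matplotlib 3.10.9 under Python 3.11.15.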

Additional observations from a re-analysis of the deposited data

Results flagged for a closer look

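In each of 27 groups of 4 to 9 libraries, the highest and the lowest value were compared with the others by Dixon's criterion, which chance exceeds in about 1 group of 20. MiR-133b-3p in TBI+ rat 7 on D2 was 1366 CPM (1520 reads), with the other TBI+ rats between 190 and 481 CPM. The same library held the highest TBI+ value of miR-208b-3p, 35.9 CPM, with the others between 4.68 and 18.2 CPM. On D9, miR-133b-3p in TBI+ rat 4 was 110 CPM (others 33.7 to 52.3 CPM). MiR-133a-5p in TBI− rat 2 on D9 was 175 CPM (58 reads), with the others between 2.58 and 67.2 CPM, while miR-133b-3p in that library was 45.2 CPM. MiR-208b-3p in TBI− rat 4 on D9 was 20.4 CPM (10 reads), and miR-208a-3p in TBI− rat 3 on D2 was 9.89 CPM (4 reads). MiR-1b in sham rat 2 on D9 was 67.8 CPM (11 reads) with 0 in the other sham rats, and the same library held the 2 reads of miR-206-3p in sham rats on D9.

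The effect of injury on miR-1b differed between the days by a log2 value of -5.55 (edgeR interaction, adjusted p = 0.0383). It rested on the library of sham rat 2 just named.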

How the results depend on the processing

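The falls of miR-133a-5p and miR-133b-3p from D2 to D9 in TBI rats were called in 9 of 9 alternatives each, with log2 fold changes from -4.36 to -3.42 and from -2.94 to -2.10. That of miR-208a-3p was called in 8 of 8 (from -5.28 to -2.62) and that of miR-208b-3p in 6 of 9 (from -1.82 to -0.71). The number of members called on D2 stayed at 0 in all alternatives run. On D9 it was 0 in TBI against sham, in TBI+ against sham and in TBI− against sham by DESeq2 (which gave no adjusted p for miR-206-3p, nor for miR-1b in TBI against sham), with filterByExpr (which tests 2 of the members) and with the animal number as a replicate block. Thinning and the hemolysis index left 1 member in TBI− against sham. With 1 rat left out, these 3 counts ranged from 0 to 2, from 0 to 1 and from 0 to 2, and leaving out sham rat 2 gave the 0. Between the days in sham rats, DESeq2, filterByExpr, thinning and the hemolysis index gave 0 members, library totals alone gave 2, and leaving out a sham rat gave 0 to 2. In TBI rats filterByExpr, thinning and the rats whose D2 library number is lower gave 3 members. For the interaction DESeq2 called 2 members, filterByExpr and thinning 0, and leaving out a sham rat gave 0 to 1.

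Among the members, the values that changed sign were miR-1b without sham rat 2 and values that were not called. With 1 sham rat left out, miR-1b on D9 ranged from -6.08 to 1.43, from -6.45 to 1.06 and from -5.87 to 1.64 for TBI, TBI+ and TBI− against sham, from -2.19 to 5.66 for D9 against D2 in sham and from -6.62 to 1.32 for the interaction, the opposite sign being without sham rat 2 in each. Of these, TBI against sham on D2 was 0.28 for miR-208a-3p with the animal number as a replicate block, and for miR-133a-5p it ranged from -0.038 to 0.77 with 1 sham rat left out (-0.16 to 0.63 for TBI− against sham). TBI+ against sham on D2 was -0.25 for miR-208a-3p when thinned and from -0.17 to 0.50 with 1 sham rat left out. TBI+ against TBI− on D2 was -0.011 for miR-208b-3p with the block, and -0.10 for miR-208b-3p and -0.20 for miR-133b-3p without TBI+ rat 7. It was 0.048 for miR-208b-3p on D9 with the hemolysis index and 0.037 by the exact permutation test, and -0.73 and -0.094 for miR-499-5p on D9 when thinned and by the exact permutation test. The interaction for miR-208b-3p ranged from -0.25 (without sham rat 4) to 4.16. The cause of these changes was not tested. Over 18 single results called, 131 alternative values kept the call, 34 lost it and 5 changed sign. Over 49 results not called, 13 alternative values became called, 13 changed sign and the others stayed so.

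The animal numbers are shared between groups without pairing the rats: same-numbered rats of other groups had a median correlation of -0.04, above 0.1 in 8 of 30 pairs, and the block on that number left 0 members called on D9 (without it 1 in TBI, 1 in TBI+ and 2 in TBI− against sham). The rat as a replicate block changed, among the members, only the calls given beside the results for miR-133a-5p in sham rats and in the interaction, miR-208a-3p in TBI− rats, miR-133b-5p in TBI rats, and for miR-1b, which it no longer called. Its p-values pool the spread over all miRNAs. For miR-133a-5p its SE was below that of the changes of the rats themselves in sham rats (0.50 against 1.24), TBI− rats (0.33 against 0.68) and all TBI rats (0.25 against 0.40). In TBI+ rats it was above it (0.36 against 0.21). Depth limits all members under 10 CPM, in D9 sham rats above all.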
